A study of Mus musculus with 6 samples.

Results

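The genes described here encode proteins of the acrosome and of sperm-egg binding: Acr, Acrbp, Spam1, Acrv1, Spaca1, Spaca3, Zpbp, Zpbp2, Zp3r and Izumo1. These 10 genes were chosen by name for their known roles, and every mRNA probe whose RefSeq transcript belongs to one of them was taken. This gave 10 of the 19053 named genes and 13 of the 22464 mRNA probes on the array, with 2 probes each for Acrbp, Zpbp2 and Spam1 and 1 probe for each other gene.

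RNA from whole testes of male C57/BL6 mice was hybridised to single-colour arrays of lncRNA and mRNA probes at 2 ages, 6 days after birth (neonatal) and 8 weeks (adult). Each age had 3 arrays, and no treatment was applied. At each age the arrays stand for separate groups of mice and not for single animals. P-values below measure the spread between these arrays, and the number of arrays limits their precision.

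The acrosome is a Golgi-derived vesicle that forms over the nucleus of the round spermatid and is kept through the rest of sperm formation. It holds proteases, a hyaluronidase and matrix proteins that are released or exposed when sperm meet the zona pellucida, the glycoprotein coat of the egg. Membrane proteins uncovered by this release then take part in adhesion and fusion with the egg surface. Germ cells of the first days after birth have not yet entered meiosis, and spermatids are present only in the older testis.

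Signals are given as normalized log2 signal, the log2 of the processed signal over the 75th percentile of its own array, so that 0 is that percentile. Values below a common floor of -7.22 were set to it and have no order among themselves. The 75th percentile of the signal was 2947, 2503 and 1385 on neonatal arrays 1 to 3 and 1856, 1425 and 747 on adult arrays 1 to 3. The scanner software marked 75.9%, 78.5% and 77.6% of mRNA probes on the neonatal arrays as well above background, and 77.3%, 73.9% and 76.1% on the adult arrays. Replicate 3 of both ages shared 1 scan date in the file headers, and the other 4 arrays shared another. No slide label was read, and these scan groups are called slide 2 and slide 1 here. Replicate 3 and scan group cannot be told apart.

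Markers of testicular cell types were read first, and the brightest probe of each list is named as a description, since signals of different probes do not give relative transcript levels. The 6 spermatid markers (Tnp1, Tnp2, Prm1, Prm2, Tssk6 and Odf1) summed to 0.465, 0.446 and 0.550 times the 75th percentile on the neonatal arrays and to 1066, 1287 and 1462 times on the adult arrays, the brightest probe being that of Tnp1 on every neonatal array and of Prm2 on every adult array. All 6 were well above background on every array, so that none was at 0 in neonates. The 6 spermatocyte markers summed to 26.2 to 35.5 in neonates and 280 to 348 in adults, and 6 of their 8 tested probes rose. Those that rose were the probes of Spo11, Hspa2 and Piwil1. Sycp1 and Ldhc were not called, at log2 fold changes of 0.81 and 1.74. Sycp3 could not be tested, and was at 0.09 with spots marked non-uniform kept. The brightest spermatocyte probe was that of Sycp1 on neonatal arrays 1 and 2, of Ldhc on neonatal array 3 and of Hspa2 on the adult arrays. The sum of the spermatogonial markers went the other way, from 118 to 128 in neonates to 22.6 to 27.3 in adults, though only 1 of 4 tested probes fell, or 4 of 6 with spots marked non-uniform kept. Uchl1 was the brightest at both ages, with Gfra1 above background on 0 of the 6 arrays.

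Somatic cell markers were also present. Sertoli cell markers summed to 40.2 to 61.4 in neonates and 11.1 to 14.6 in adults, with Clu the brightest on neonatal arrays 1 and 2 and Wt1 on the other 4 arrays. Leydig cell markers summed to 10.2 to 15.8 and 46.1 to 66.2, with Hsd17b3 the brightest in neonates and Insl3 in adults. These 2 moved apart: with non-uniform spots kept, Insl3 rose by a log2 change of 3.49 and Hsd17b3 changed by -2.04. Of the tested Leydig probes 0 of 2 were called, and 1 of 5, that of Insl3, with the spots kept. Peritubular myoid markers gave 21.7 to 27.0 and 4.33 to 6.55, Myh11 being the brightest, and endothelial markers 7.89 to 15.1 and 1.78 to 3.28, Cdh5 being the brightest. Macrophage markers gave 2.80 to 2.97 and 1.88 to 2.45, Csf1r being the brightest, and erythroid markers 2.55 to 6.60 and 3.77 to 4.59. The erythroid sum hides opposite moves, as Hba-a1, the brightest in neonates, fell by a log2 change of -3.78 with non-uniform spots kept, while both probes of Alas2, the brightest in adults, changed by 2.01 and 2.03 and were not called. The tissue label thus had germ cell, Sertoli and Leydig markers at both ages.

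Markers of epididymis, which can be carried along with testis, were uneven. Lcn8 was above background on 0 of the 6 arrays, and Lcn5 only on 1 neonatal array with 1 of its 2 probes. Crisp1, an epididymal secretory protein picked out after its values were seen, was at 2.43, -4.34 and 2.51 on the neonatal arrays and at -4.23, -4.37 and -5.30 on the adult arrays. Neonatal arrays 1 and 3 stood far above the other 4. The log2 fold change was -3.35 (limma adjusted p = 0.204) without the non-uniform spot of neonatal array 3 and -4.84 (limma adjusted p = 0.0535) with it, and Crisp1 was called in neither. The summed list went from 4.30 to 12.4 in neonates to 53.2 to 89.6 in adults, where Cst8 was the brightest. Of the 4 tested probes only that of Cst8 rose, and Crisp1, Lcn5 (-0.36) and Adam7 (-0.29) had log2 fold changes below 0. The members rose between the 2 ages, as did the spermatid markers, 6 of the 8 tested spermatocyte probes and Cst8. With non-uniform spots kept so did Insl3, and the direction alone does not set spermatids apart. In bulk tissue, fewer cells of a type and less RNA per cell cannot be told apart, and the part of cell composition in the values below was not tested.

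A probe counted as risen or fallen when its ages differed 5-fold or more in a limma fit blocked on replicate number, with p no higher than 0.05 after Benjamini-Hochberg adjustment across lncRNA and mRNA probes together. Spots that the scanner software marked as non-uniform were dropped from this fit, and each probe had to keep 2 full pairs of replicates. Of the 13 member probes, 7 from 6 genes could be tested, and 7 rose in adults, where 12.6% of the 15121 tested mRNA probes rose and 13.7% fell. The other 6 probes, which include those of Spaca1, Spaca3, Zpbp and Spam1, had too few pairs left: 20 of the 39 adult member spots (51.3%) were marked non-uniform, against 16.6% of all adult mRNA spots, and 6 of the 39 neonatal ones (15.4%), against 22.6%.

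With the non-uniform spots kept, all 13 probes were tested and 13 rose, where 12.8% of 19310 tested mRNA probes rose and 15.4% fell. Spaca3, Izumo1 and 1 Spam1 probe passed the filter on dim probes only through the adult arrays and had to differ, so these counts are a description. For probes at the floor on all 3 neonatal arrays the fit compares adult signal with a constant, so a bound is given in place of a fold and no p is printed. The median log2 fold change, adult over neonatal, was 7.88 over the 7 tested member probes and -0.40 over all tested mRNA probes, and 8.02 and -0.50 with the spots kept. The median of all mRNA probes depended on the processing, at -0.75 after quantile normalization, -0.65 after a shift to the array median and 0.03 after normexp. The split of calls was 1908 higher and 2075 lower here, 1500 and 1034 with normexp, which changes the background treatment, and 2276 and 3873 with the deposited log2 values. That table also differs in its floor and in keeping non-uniform spots, with 18506 probes tested. Every member probe that could be tested was higher in adults under each of these.

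Detection in neonates divided the members. On all 3 neonatal arrays, 8 probes of 6 genes were well above background: Acr, both Acrbp probes, Acrv1, Spaca1, Zpbp and both Zpbp2 probes. Zp3r was detected on 2 of the 3 arrays and 1 Spam1 probe on 1 of them. The probes of Spaca3 and Izumo1 and the other Spam1 probe were detected on none. On the adult arrays all 13 probes were well above background, and for none of the 13 did the groups overlap. Among all 19310 mRNA probes tested with the spots kept, every adult array lay above every neonatal one for 26.9% and below for 45.6%.

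**Figure D1:**
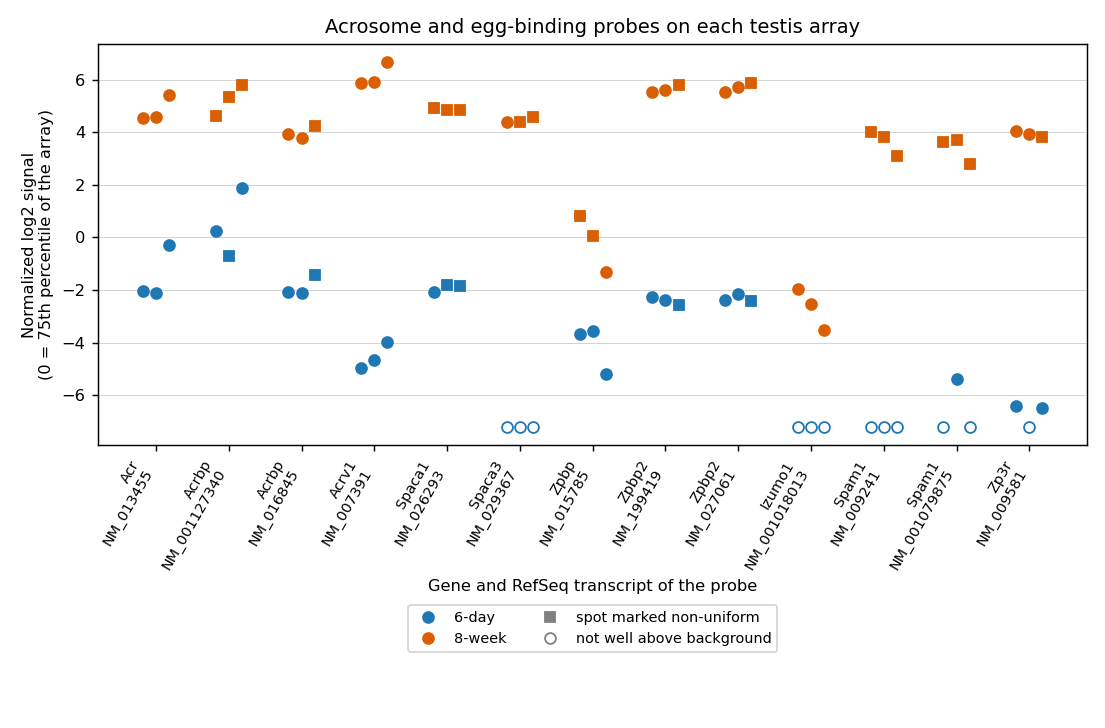
Normalized log2 signal (vertical axis, 0 is the 75th percentile of the array) of the 13 acrosome and egg-binding probes (horizontal axis) on the 3 neonatal and 3 adult arrays, drawn left to right as replicates 1 to 3. Squares are spots marked non-uniform and open circles are spots not well above background; for each probe every adult point lies above every neonatal point.

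The acrosomal enzymes and their partner came first. Acr encodes acrosin, the main serine protease of the acrosome, and is carried as an inactive precursor. Its normalized log2 signal was -2.04, -2.10 and -0.29 on neonatal arrays 1 to 3 and 4.56, 4.57 and 5.41 on adult arrays 1 to 3. The adult arrays were all high, and replicate 3 stood above the other replicates at both ages. The log2 fold change was 6.32 (SE 0.24, limma adjusted p = 0.000173), an 80.0-fold rise seen in 3 of 3 pairs. On slide 1 the mean difference was 6.63 and on slide 2 it was 5.70.

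Acrbp encodes the proacrosin-binding protein, which holds the acrosin precursor in the acrosomal granule. Its probe for NM_016845 was at -2.09, -2.13 and -1.44 in neonates and at 3.95, 3.77 and 4.23 in adults, and no adult value came near a neonatal one. With replicate 3 left out as non-uniform, the log2 fold change was 5.97 (SE 0.14, limma adjusted p = 0.000251). The probe for the other transcript, NM_001127340, was at 0.23, -0.69 and 1.90 in neonates and at 4.61, 5.36 and 5.80 in adults. Its neonatal arrays spread widely (SD 1.31, n = 3), and every adult spot and neonatal spot 2 were non-uniform. Keeping these spots gave a log2 fold change of 4.78 (SE 0.46, limma adjusted p = 0.000883). It was 4.16 with normexp, and from 4.14 to 5.21 with a replicate pair left out. The fold of the first probe exceeded that of the second by 1.67 and 1.77 in pairs 1 and 3 and fell short of it in pair 2, at -0.15 (SD of the 3 differences 1.08). The probes thus did not differ evenly.

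Spam1 encodes the membrane-anchored hyaluronidase PH-20, which helps sperm pass the cumulus matrix around the egg. Its probe for NM_009241 was at the floor on all 3 neonatal arrays and at 4.01, 3.83 and 3.10 in adults. The adult spots were all bright and all non-uniform. Against the lowest signal that counted as well above background on each neonatal array, the adult mean was at least 1875-fold higher. With normexp the log2 fold change was 8.62, below that bound. The probe for NM_001079875 was at the floor on neonatal arrays 1 and 3 and at -5.39 on array 2, the only neonatal array to detect Spam1, and at 3.63, 3.72 and 2.78 in adults. Its log2 fold change of 9.99 with the spots kept (SE 0.36, limma adjusted p = 6.84e-05) rests on the floor for 2 of the 3 neonatal arrays, and was 8.21 with normexp and 11.31 with no floor. In adults, replicate 3 was the lowest for both Spam1 probes.

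Bounds of this kind are formed from the adult mean over all 3 arrays and, on each neonatal array, the higher of the probe's own signal and the lowest signal among probes well above background. They refer to the processed signal and not to another background treatment such as normexp. That lowest signal is the most lenient limit on its array, so "at least" is meant against that limit only. The bounds lie close to the floored fits, as for Spam1 NM_009241, at 1875 against 1873.

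Acrv1 encodes SP-10, a protein of the acrosomal matrix. It was at -4.97, -4.66 and -3.97 in neonates and at 5.89, 5.92 and 6.67 in adults. All 6 spots were uniform and well above background, and replicate 3 was the highest at both ages. The log2 fold change of 10.69 (SE 0.12, limma adjusted p = 7.63e-05) differed little between pairs, from 10.57 to 10.86. It was 9.96 with normexp and 10.08 with quantile normalization.

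Among the membrane and lysozyme-like proteins, Spaca1 encodes a protein of the acrosomal membrane. It was at -2.09, -1.80 and -1.86 in neonates and at 4.92, 4.87 and 4.86 in adults. The arrays of each age lay close together (SD 0.15 and 0.03, n = 3 each), yet 5 of the 6 spots were marked non-uniform. Keeping them gave a log2 fold change of 6.80 (SE 0.13, limma adjusted p = 1.53e-05). Without them only 1 neonatal array and no adult array was left, and no test was made.

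Spaca3 encodes a lysozyme-like protein of the acrosome that binds the egg surface. It was at the floor on all 3 neonatal arrays and at 4.38, 4.41 and 4.57 in adults. The gene thus went from not well above background to a bright and even signal. The adult mean was at least 3280-fold higher, with adult spots 2 and 3 non-uniform, and the log2 fold change with normexp was 8.85, which is below that bound.

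The zona-binding group holds a pair of related genes, Zpbp and Zpbp2, whose products lie in the acrosomal matrix and bind the zona pellucida. Zpbp was at -3.69, -3.57 and -5.21 in neonates and at 0.81, 0.07 and -1.30 in adults. Replicate 3 was the lowest at both ages, and the groups did not overlap. Keeping 2 non-uniform adult spots gave a log2 fold change of 4.01 (SE 0.21, limma adjusted p = 0.000158).

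Zpbp2 had a probe for each of 2 transcripts. The probe for NM_199419 was at -2.29, -2.39 and -2.59 in neonates and at 5.54, 5.61 and 5.82 in adults. The probe for NM_027061 was at -2.37, -2.15 and -2.43 in neonates and at 5.53, 5.72 and 5.86 in adults. Both were low and even in neonates and high and even in adults. From pairs 1 and 2 their log2 fold changes were 7.91 (SE 0.15, limma adjusted p = 0.000176) and 7.88 (SE 0.14, limma adjusted p = 0.000169). With the spots kept they were 8.08 and 8.02 and differed from each other by 0.06 (SD 0.11, n = 3 pairs), less than the spread between pairs. The rise of Zpbp2 exceeded that of Zpbp in each pair, by 3.33, 4.37 and 4.50 with the first probe. Over the 3 pairs the mean difference between these paralogs was 4.07 (SD 0.64). This difference was given no test.

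Zp3r, also called sp56, encodes another zona-binding protein of the acrosomal matrix. It was at -6.43 and -6.48 on neonatal arrays 1 and 3, at the floor on array 2, and at 4.04, 3.96 and 3.81 in adults. Neonatal signal was thus detectable on 2 of the 3 arrays and adult signal was high on every array. The log2 fold change was 10.83 (SE 0.24, limma adjusted p = 0.00023), from pairs 1 and 2, of which pair 2 has the floor as its neonatal value. It was 9.29 with normexp, and the methods' t-test did not call it after adjustment.

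Izumo1 stands for fusion: it encodes the sperm protein that binds the egg receptor Juno. It was at the floor on all 3 neonatal arrays and at -1.96, -2.52 and -3.54 in adults. The adult arrays spread more than for most members (SD 0.80, n = 3), with replicate 3 the lowest. All 6 spots were uniform. The adult mean was at least 23.5-fold higher. With normexp, which sets no floor, the log2 fold change was 2.47, below that bound.

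The 8 probes measured on every neonatal array can be ordered by fold change, spots kept. Acrv1 came first, at 10.69, and its pairs did not overlap with those of any probe below it. The Zpbp2 probes followed at 8.08 and 8.02 and overlapped with each other, from 7.83 to 8.40 and from 7.87 to 8.29. Spaca1 came next at 6.80, its lowest pair just above the highest of Acr, which was at 6.32 with pairs from 5.70 to 6.67. Acr, Acrbp NM_016845 (5.87) and Acrbp NM_001127340 (4.78, pairs from 3.91 to 6.05) overlapped. Zpbp was last at 4.01, from 3.63 to 4.50, and overlapped with the second Acrbp probe.

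**Figure D2:**
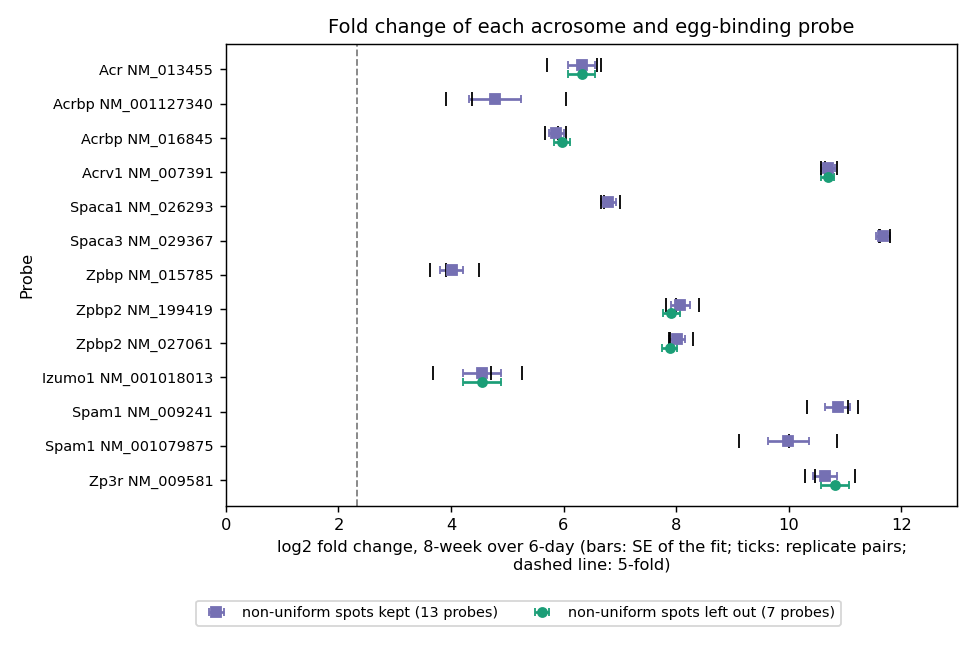
Log2 fold change, adult over neonatal (horizontal axis), of each member probe (vertical axis) with its SE from limma, with non-uniform spots kept (squares, 13 probes) and left out (circles, 7 probes); black ticks are the 3 replicate pairs and the dashed line is a 5-fold change. Among probes detected on every neonatal array, values run from 4.01 for Zpbp to 10.69 for Acrv1, and the neonatal side is the floor for Spaca3, Izumo1 and Spam1 NM_009241 and partly so for Spam1 NM_001079875 and Zp3r.

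Replicate 3, on its own scan date, differed in the same direction at both ages for several members: it was the highest array of its age for Acr, Acrv1 and both Acrbp probes, and the lowest for Zpbp. With slide as a block in place of the replicate number the 7 testable probes were called as before, and for the 6 other than that of Izumo1 the adjusted p-values ran from 4.63e-06 to 4.83e-05.

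Profiles most like the members were sought by the distance between signals centred on each probe's mean over the 6 arrays, spots kept, among 15860 mRNA probes of other genes well above background on all adult arrays. The 5 nearest to the median profile of the 13 member probes were 1700018B08Rik (distance 0.257), Klhl10 (0.288), Efcab3 (0.318) and Cabyr with 2 probes (0.319 and 0.363). 1700018B08Rik was at -2.51, -2.37 and -2.66 in neonates and at 5.19, 5.30 and 5.79 in adults, a log2 fold change of 7.94 (limma adjusted p = 3.03e-05). All 5 were well above background in neonates and their log2 fold changes lay from 7.86 to 8.10. With the non-uniform spots left out, pairs 1 and 2 gave 7.68 to 8.00. Among the members, the Zpbp2 probes lay nearest to that median, at 0.172 and 0.257, and Zpbp farthest, at 5.22.

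Related genes were read from 6 lists, which hold 75 genes, 65 of them with a probe. Of 53 tested probes, 25 rose and 0 fell in limma, where 12.6% of all tested mRNA probes rose and 13.7% fell. Of the 53, 12 were detected on 0 neonatal arrays and passed the filter only through the adult arrays. Of these 53, 12 had a log2 fold change below 0, 10 of them with an unadjusted p of at most 0.05 and 0 of those at 5-fold, and the methods' t-test also called 0 lower. Of the 72 probes tested with the non-uniform spots kept, 18 were likewise detected on 0 neonatal arrays. Of these 72, 36 rose and 2 fell, where 12.8% and 15.4% of all did. Those 2, named after their values were seen, were Unc13b, a vesicle-priming factor, at -2.89 (limma adjusted p = 0.000281), and Cd9.

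Of the other acrosomal contents, 9 of 9 tested probes rose, with a median log2 fold change of 9.74, and 13 of 13 with the spots kept. Of these, 5 and 7 were not detected on any neonatal array and so had to differ to be tested at all, which leaves the counts a description. They include Crisp2, a cysteine-rich secretory protein of the acrosome, at 12.87 (SE 0.15, limma adjusted p = 0.000126), and Pcsk4, a proprotein convertase. Pcsk4 was not well above background in neonates, and its adult mean was at least 8.82-fold higher.

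Of the sperm membrane and fusion genes, 6 of 7 tested probes rose (median 5.09; 7 of 8 with the spots kept), and for 7 of the 15 genes no mRNA probe was found by RefSeq name. Among the tested probes, 1 and 2 were detected on no neonatal array and passed the filter only through the adult arrays. Equatorin (Eqtn), of the acrosomal membrane, rose by a log2 fold change of 7.62 (SE 0.19, limma adjusted p = 0.000261) and Izumo4 by 2.59 (SE 0.27, limma adjusted p = 0.00432). Tmem81 was at 1.02 and short of the fold threshold (SE 0.15, limma adjusted p = 0.0048).

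Genes needed to make sperm able to bind the zona gave 7 rises among 11 tested probes (median 3.74; 9 of 14 with the spots kept). Of the tested probes, 3 and 5 were detected on no neonatal array and passed the filter only through the adult arrays, which leaves the counts a description. Adam2, the fertilin beta subunit, was at 12.59 (SE 0.14, limma adjusted p = 0.000126), with neonatal signal well above background on 1 array, so that the value rests partly on the floor. Ly6k, a membrane-anchored protein, was at 3.19 (SE 0.17, limma adjusted p = 0.000308). Calr3, a testis chaperone, had 2 probes with unlike values: NM_029782 was at -0.41 (limma adjusted p = 0.178) and NM_028500, at the floor in neonates, rose at least 24.1-fold.

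Of the genes of acrosome formation, 2 of 9 tested probes rose (median 1.17), both of Spata16, a Golgi protein of spermatids. One was at 12.50, with neonatal signal on 2 of the 3 arrays and so partly resting on the floor, and the other rose at least 622-fold over all 3 adult arrays. With the spots kept 4 of 14 rose, adding Tmf1, a Golgi-associated protein, 16.0-fold higher in adults (limma adjusted p = 3.92e-05) and Agfg1, a vesicle-docking protein, at a log2 fold change of 2.42 (limma adjusted p = 0.000277), both named after their values were seen. Smap2, a regulator of vesicle traffic, was at 0.28 (SE 0.14, limma adjusted p = 0.163). For the machinery of the acrosome reaction, 1 of 13 tested probes rose (median 0.91), where 12.6% of all tested mRNA probes did. It was that of Plcd4, a phospholipase, for NM_001081456, which passed the filter only through the adult arrays and rose at least 11.3-fold. With the spots kept 3 of 18 rose, adding the Plcd4 probe for NM_148937, at least 402-fold, and Pla2g10, another phospholipase, at 7.29 (limma adjusted p = 1.36e-05), both named after their values were seen. Syt6, a synaptotagmin, was at 0.10 (SE 0.12, limma adjusted p = 0.464). The 13 tested probes of this list are of 9 genes, and Rims1 has more of them than any other gene. The Rims1 probes were dim, with log2 fold changes from 0.75 to 1.09, and the median of 0.91 is the value of one of them. Many genes of these lists serve vesicle traffic in all cells. The difference between lists was not tested.

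The egg-side genes encode the zona proteins and the egg partners of sperm. Of 7 genes with 8 probes, 4 probes were tested and none was called (median -1.29). Zp3 was at -1.30, -1.31 and -1.21 in neonates and at -3.27, -3.20 and -3.13 in adults, a log2 change of -1.93 (SE 0.10, limma adjusted p = 0.000303), below the fold threshold. Cd81, a tetraspanin, changed by -1.49 (limma adjusted p = 0.00154). Cd9, the related tetraspanin of the egg surface, was at 2.87, 2.76 and 3.66 in neonates and at -0.82, -0.71 and -0.73 in adults, and fell by a log2 change of -3.85 with the spots kept (limma adjusted p = 0.000197). Zp1 was above background only in adults, at least 2.43-fold higher. The Juno gene Izumo1r, with its probe for NM_022888, was detected only in neonates, at -6.23, -6.10 and -6.08, at least 1.63-fold above the adult bound. It was called lower in adults with no floor (-2.64) and with quantile normalization (-3.02). Its other probe, Zp2 and Astl were above background on 0 of the 6 arrays.

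**Figure D3:**
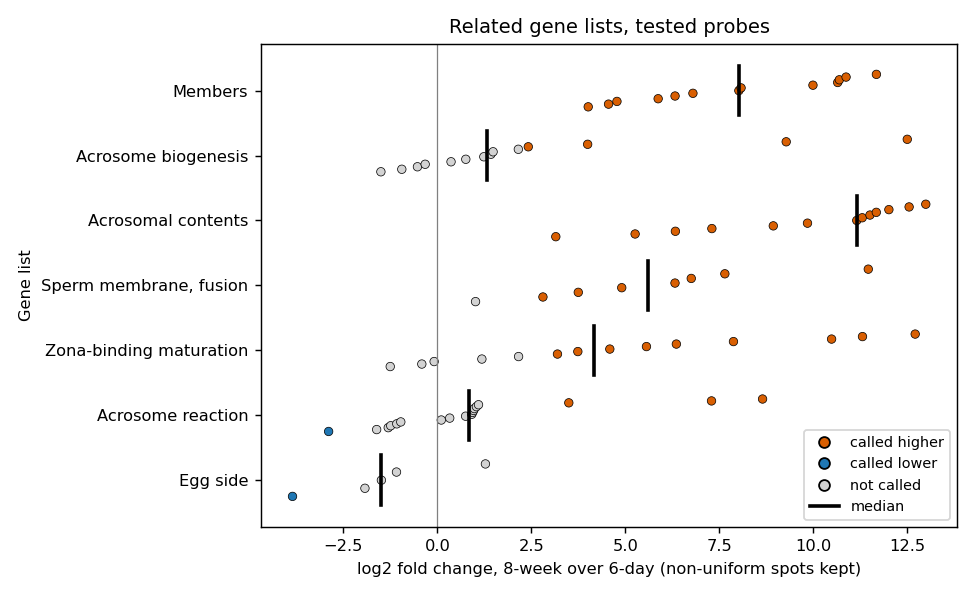
Log2 fold change, adult over neonatal (horizontal axis, non-uniform spots kept), of the tested probes of the members and the 6 related lists (vertical axis); orange was called higher, blue lower and grey not called, and black bars are medians. The medians are 8.02 for the members and 11.16 for the acrosomal contents, against 0.83 for the acrosome reaction list, in which 3 probes were called higher and 1 lower, and -1.49 for the egg side, in which 1 was called lower. The acrosome reaction list has 18 probes of 13 genes, several of them of Rims1.

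Neighbouring genes were read from the RefSeq table, taking the nearest protein-coding gene on each side of each member. Of the 20 neighbours, 18 had an mRNA probe, 19 probes in all, and 17 were tested with the spots kept. Of these 3 rose and 3 fell, where 12.8% of all tested mRNA probes rose and 15.4% fell. The 3 that rose, named after their values were seen, were Rabl2 beside Acr (log2 fold change 2.99), Pate14 beside Acrv1 and Hyal5, another hyaluronidase gene, beside Spam1. Pate14 and Hyal5 were at the floor in neonates and rose at least 38.7-fold and 3258-fold. Both passed the filter only through the adult arrays, so the count of rises is a description. Ing4 beside Acrbp (-3.10) and Asic2 beside Spaca3 (-3.50 and -3.22) fell.

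The promoters of the members are shown because the genes rose together. RefSeq windows of 300 bases around a listed start (GRCm38.p6) were found for 9 of the 10 members, 11 windows in all, and not for Acr. That of Zpbp lies inside the gene as RefSeq draws it and not at its outer end. Base composition varied widely, from a GC content of 39.7% with no CpG in Spam1 to 64.0% with 26 CpGs in Zpbp2, against a median over all 32851 windows of 52.7% and 7. The cyclic AMP response element TGACGTCA was searched on both strands with its short form TGACG, which lies inside it. TGACGTCA was found in 1 of the 11 windows, that of Izumo1, and in 1.79% of all windows. TGACG was found in 7 of 11 windows, of 5 genes, and in 20.8% of all windows. The stretches around these matches are printed 5′ to 3′ on the strand of the gene, the matched letters in capitals (CGTCA is TGACG on the other strand).
Izumo1, chr7:45621695-45621742, plus strand: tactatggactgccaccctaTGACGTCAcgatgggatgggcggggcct
Spaca1, chr4:34050100-34050154, minus strand: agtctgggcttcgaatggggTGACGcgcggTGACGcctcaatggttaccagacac
Acrbp, chr6:125049889-125049926, plus strand: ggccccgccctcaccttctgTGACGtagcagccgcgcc
Spaca3, chr11:80858281-80858325, plus strand: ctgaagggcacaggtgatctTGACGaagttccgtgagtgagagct
Zpbp2, chr11:98550930-98550974, plus strand: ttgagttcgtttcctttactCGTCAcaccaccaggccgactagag

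Spaca1 and Spaca3 have 2 overlapping windows each, which hold the same stretch, so the 7 windows are 5 stretches. Counted from the listed start, the Izumo1 match begins at -96 and the Acrbp match at -18. Of the other motifs searched on both strands, AACNG was in 8 of 11 windows (80.3% of all windows), GGGCGG in 5 (35.7%), CCAAT in 2 (37.4%) and TATAAA in 0 (13.6%). A match is a run of letters and not a shown site, and a window without one says only that these letters are not in it.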

How the data were processed

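Per the file headers, the deposited scanner files were made with Agilent Feature Extraction 10.5.1.1 and hold the processed spot intensity, background-subtracted within each array, and 0 or 1 flags for background, uniformity and saturation. The authors' deposited table of log2 values equals the log2 signal, floored at 5, less a constant per array (100% of 26771 probes within 0.001), with medians from 1.20 to 1.30. The authors' methods name GeneSpring GX 11.0, quantile normalization and background correction. The table served as an alternative.

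Signals were divided by each array's 75th percentile over non-control probes, floored and log2-transformed. Spots marked non-uniform were left out. limma 3.58.1 in R 4.3.3 fitted age with the replicate number as a block to probes that 1 array or more placed well above background and that kept 2 complete pairs. The pairing check gave correlations of deviations from the age means of 0.497, 0.429 and 0.777 for same-numbered arrays. Differently numbered arrays of slide 1 reached 0.470 and 0.508, so the number showed no pairing beyond the slide. Arrays of different slides ran from -0.690 to -0.556. The fit was tested on simulated data.

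RefSeq accessions named 21905 of 22464 mRNA probes (97.5%). Different probes of a gene were kept apart. Tables and figures were made in Python 3.11.15.

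The members and lists were chosen with earlier results of these data known. Named genes are every member probe; from each list the called gene with the largest and smallest absolute log2 fold change in each direction and the tested gene with the smallest; the whole egg-side list; markers in the tissue check; and the 5 probes nearest to the members' median profile. Neighbouring genes were added later. The mean spot signal was not used here; normexp (offset 50) was run on the median spot and background signals.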

Additional observations from a re-analysis of the deposited data

How the results depend on the processing

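The count of member probes that rose, 7, was 7 with normexp, quantile normalization, unfloored signals, signals floored at 5 ahead of scaling, median-shifted signals, the stricter filter, no filter, no replicate block, slide as a block, a 2-fold threshold and the methods' t-test at its threshold. It was 6 with the t-test after adjustment, where Zp3r was at an adjusted p of 0.0502. It was 12 with the deposited log2 values, which list 12 of the 13 probes, and 13 with non-uniform spots kept. Leaving out a replicate pair gave 3 to 7. Leaving out an array with no block also gave 3 to 7, with 4 without neonatal array 1 or 2. Fewer probes could be tested without replicate 1 or 2, since replicate 3 holds many non-uniform spots, and each testable member probe was called. In further alternatives chosen after seeing the data, with the spots kept and no floor, quantile normalization, a shift to the median, normexp, no replicate block or any pair left out, the count was 13.

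Of the 53 related probes tested, 25 rose, and 9 to 25 did so with a replicate pair or array left out. Fewer could then be tested, with 9 of 27 rising without replicate 2, 10 of 30 without adult array 1 and 24 of 52 without replicate 3. On the same 53 probes the count was 19 with the t-test after adjustment, 21 with normexp, 27 with no floor and 34 at a 2-fold threshold. The paired fit and the fit with no replicate block both gave 25. The count that fell, 0, was 1 with no floor and 1 with quantile normalization (Izumo1r in each), 2 with the deposited log2 values and 2 with the spots kept (Cd9 and Unc13b in each), and 9 at a 2-fold threshold. With a pair or array left out it was 0. The block changed no member's call. No log2 fold change of a member reversed.

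Neonatal signals at the floor limit what the folds of Spaca3, Izumo1 and Spam1 NM_009241 can say, which are given as bounds. Those of Spam1 NM_001079875 and Zp3r rest partly on the floor.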
